A study of Homo sapiens with 24 samples.

Results

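The proteasome subunit mRNAs described here are the transcripts of genes whose symbol is PSMA, PSMB, PSMC or PSMD followed by a number, without pseudogenes. The rule found 39 genes among 61853 gene rows. Of these, 19 encode the core particle (8 PSMA and 11 PSMB genes) and 20 encode subunits or assembly chaperones of the regulatory particle (6 PSMC and 14 PSMD genes). All 24 libraries came from 293T cells, a line derived from human embryonic kidney that carries the SV40 large T antigen. In every library DIS3 had been knocked down with the hairpin DIS3-sh2 and DIS3 had been put back, either as the wild-type protein (WT, 12 libraries) or as the D146N mutant (12 libraries). DIS3 is a catalytic ribonuclease of the RNA exosome, and D146N changes a residue of its endonuclease domain. Lysates had been run on sucrose density gradients, and cytoplasmic RNA of the gradient fractions 3, 4, 7 and 8 was depleted of ribosomal RNA and sequenced. This gave 8 groups, each a genotype in a fraction, with 3 replicates. The sources used here do not give the promoter of the rescue construct, whether a line was 1 clone, or whether replicates were separate cultures. They also do not say from which end of the gradient the fractions were numbered.

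The proteasome degrades proteins tagged with ubiquitin. Its core particle is a barrel of stacked rings, with outer alpha rings (PSMA) that gate the channel and inner beta rings (PSMB) that hold the cutting sites. The regulatory particle caps the barrel: in its base, a ring of ATPases (PSMC) unfolds substrates, and in its lid and base, PSMD subunits bind and remove ubiquitin. Subunits of a complex are needed in matched amounts, and in a sucrose gradient an mRNA moves further with each ribosome it carries, so the gradient separates mRNAs by ribosome load along with free RNA and ribonucleoprotein particles.

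Library totals ran from 21.2 to 33.0 M counts, of which the 39 genes took 5572 to 36358 counts. Their share of the total was 0.128% to 0.162% in the libraries of WT fractions 3 and 4 and of D146N fractions 7 and 8, and 0.0224% to 0.0526% in those of WT fractions 7 and 8 and of D146N fractions 3 and 4. The 10 most abundant rows took 48.6% to 52.8% of counts in the first set and 65.6% to 77.6% in the other. The part of this shift in library make-up in the results below was not tested, except that a ratio of genes within a library does not depend on the library total. DIS3, the targeted gene, was read at 91.4 to 112 CPM (counts scaled to the library total) in WT fractions 3 and 4, at 4.54 to 6.28 CPM in WT fractions 7 and 8, and at 7.79 to 9.63 and 86.7 to 115 CPM in the corresponding D146N fractions. These counts do not separate the cell's own DIS3 mRNA from the rescue, and no library without the knockdown was analysed here. By these measures the labelled fractions of the 2 genotypes mirrored each other, so an effect of the mutant and a difference in how the fractions were numbered cannot be told apart. All 6 markers listed for 293T were detected, at mean levels of 3.01 to 116 CPM, and the 5 markers of other cell types lay between 0 and 4.13 CPM, with COL1A1 the highest. WT fraction 8 replicate 3 stood apart from the other libraries of its group. Over 14600 and 14671 genes, its counts differed from those of replicates 1 and 2 with a chi-square per degree of freedom of 113 and 115, against 1.75 to 5.49 for all other pairs of replicates. Values without it are given beside the results it moved most.

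**Figure D1:**
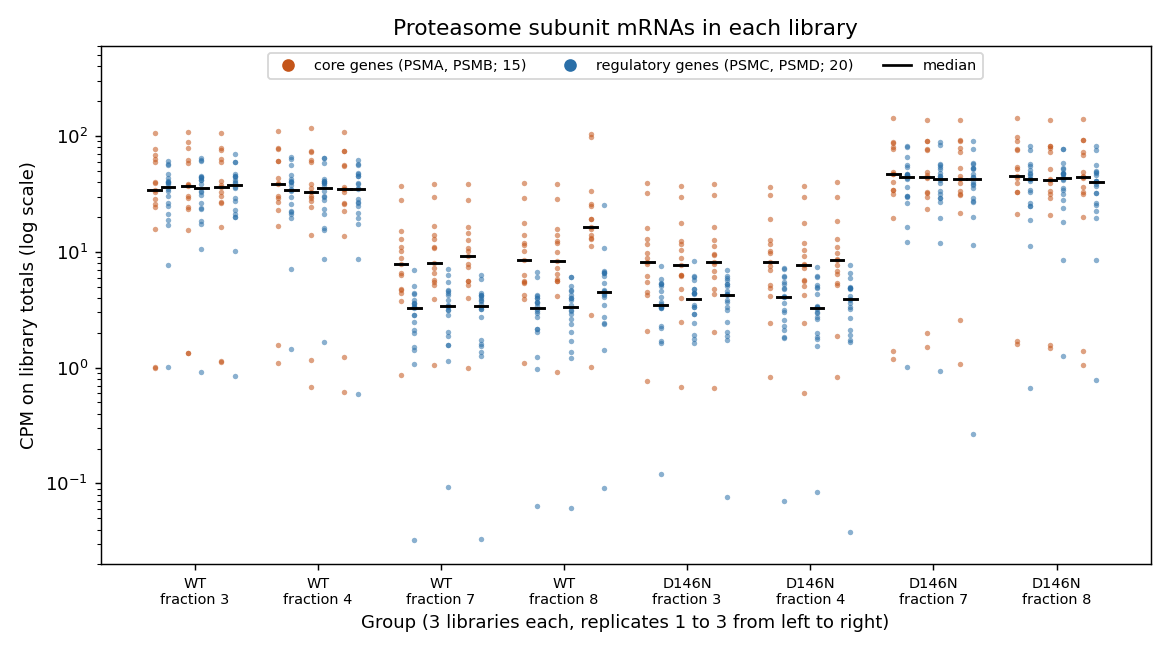
CPM on library totals (log axis) of the 15 core and 20 regulatory genes that passed the filter on low counts, in each of the 24 libraries; points are genes, black bars medians, and genes at 0 are not drawn. The core and regulatory medians lie side by side in WT fractions 3 and 4 and D146N fractions 7 and 8, while in the other 4 groups both are lower on this scale and the core median lies above the regulatory one.

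The balance between core and regulatory mRNAs changed with the fraction, and it did so in opposite directions in the 2 genotypes. It was measured as the summed counts of the core genes over the summed counts of the regulatory genes within a library. In WT fraction 3 this ratio was 0.907, 0.904 and 0.886 in replicates 1 to 3, and in fraction 4 it was 0.930, 0.915 and 0.874. In WT fraction 7 it was 2.63, 2.59 and 2.75, and in fraction 8 it was 2.73, 2.63 and 3.65. All 6 libraries of fractions 7 and 8 therefore lay above all 6 of fractions 3 and 4, and the highest value was that of fraction 8 replicate 3.

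In D146N the order was turned round. The ratio was 2.26, 2.16 and 2.12 in fraction 3 and 2.13, 2.30 and 2.25 in fraction 4, against 0.930, 0.926 and 0.920 in fraction 7 and 1.01, 0.913 and 0.997 in fraction 8. Again the groups of fractions did not overlap. For fractions 3, 4, 7 and 8 in turn, the WT means were 0.899 ± 0.011, 0.906 ± 0.029, 2.66 ± 0.081 and 3.00 ± 0.56 (SD, n = 3 each). The D146N means were 2.18 ± 0.075, 2.23 ± 0.087, 0.925 ± 0.0054 and 0.974 ± 0.053 (SD, n = 3 each). On the log2 scale the balance differed between fractions 7 and 8 and fractions 3 and 4 by 1.64 in WT (1.56 without WT fraction 8 replicate 3) and by -1.22 in D146N. The D146N libraries of fractions 3 and 4, at 2.12 to 2.30, all lay below the WT libraries of fractions 7 and 8, at 2.59 to 3.65. No p-value is given for this ratio, which is a score over the genes described.

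**Figure D2:**
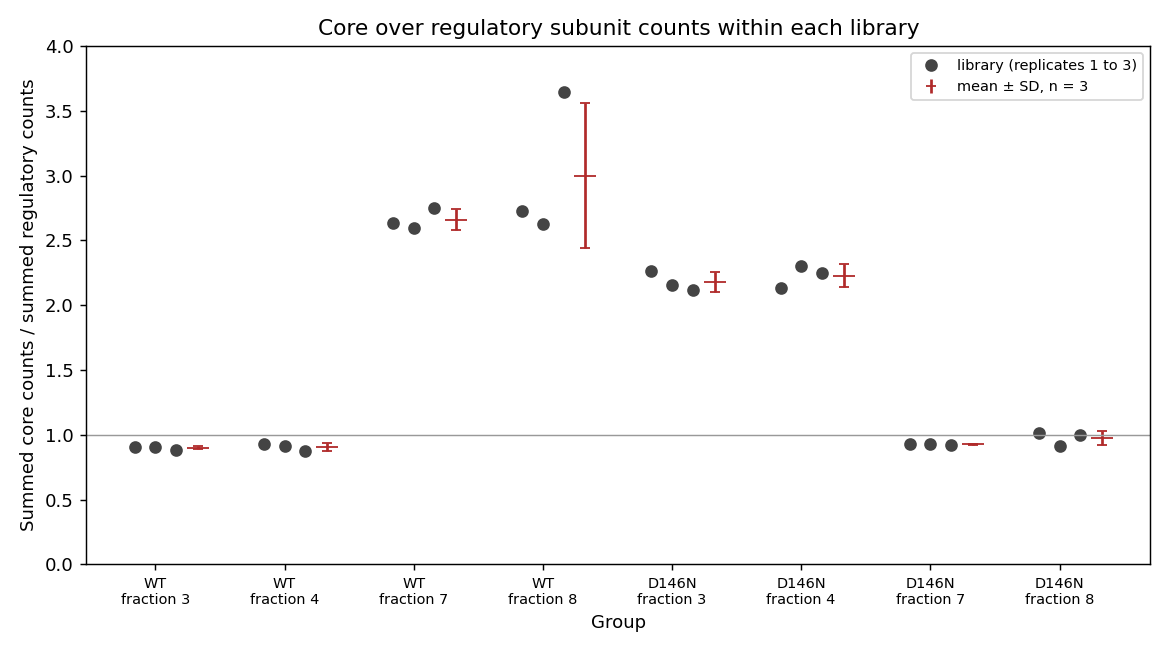
Summed core counts over summed regulatory counts in each library (points, replicates 1 to 3) with the mean and SD of the 3 libraries of each group; the grey line marks equal counts. WT fractions 7 and 8 and D146N fractions 3 and 4 lie between 2.12 and 3.65, and the other 12 libraries between 0.874 and 1.01.

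Single genes were tested with edgeR on TMM-normalized counts, on which a fold change is read relative to the bulk of genes, and calls were made where the p adjusted over all 18907 genes tested was under 0.05. Of the 39 genes, 35 passed the filter on low counts, 15 core and 20 regulatory. In WT cells, 13 of these 15 core genes were higher in fractions 7 and 8 than in fractions 3 and 4, none was lower, and 2 were not called (PSMA4 and PSMB5), with a median log2 fold change of 0.93. Among the 20 regulatory genes, 16 were lower, 3 were higher (PSMD7, PSMD8 and PSMD9) and 1 was not called (PSMD10), with a median of -0.68. Of all genes tested, 73.9% were called in this comparison, 34.6% higher and 39.3% lower, with a median of -0.18, so that a call as such was common and the directions are what the counts describe. The core genes lay above the regulatory ones with 3 exceptions: 17 of the 20 regulatory genes had a fold change below that of the lowest core gene, PSMA4. The medians of the 2 sides differed by 1.61 on the log2 scale, or 3.05-fold.

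The scale decides the sign of the core genes. On library totals the median of all genes moved to -2.83, and 13 core genes were then called lower and 1 higher, with a median of -1.74, beside 20 regulatory genes called lower, with a median of -3.36. The distance between the sides was thus the same on both scales, while "higher" for a core gene holds only relative to other genes. The words higher and lower are used in that sense from here on. A lower count in a fraction can stand for fewer molecules of that mRNA or for a larger amount of other RNA, which these counts cannot tell apart.

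**Figure D3:**
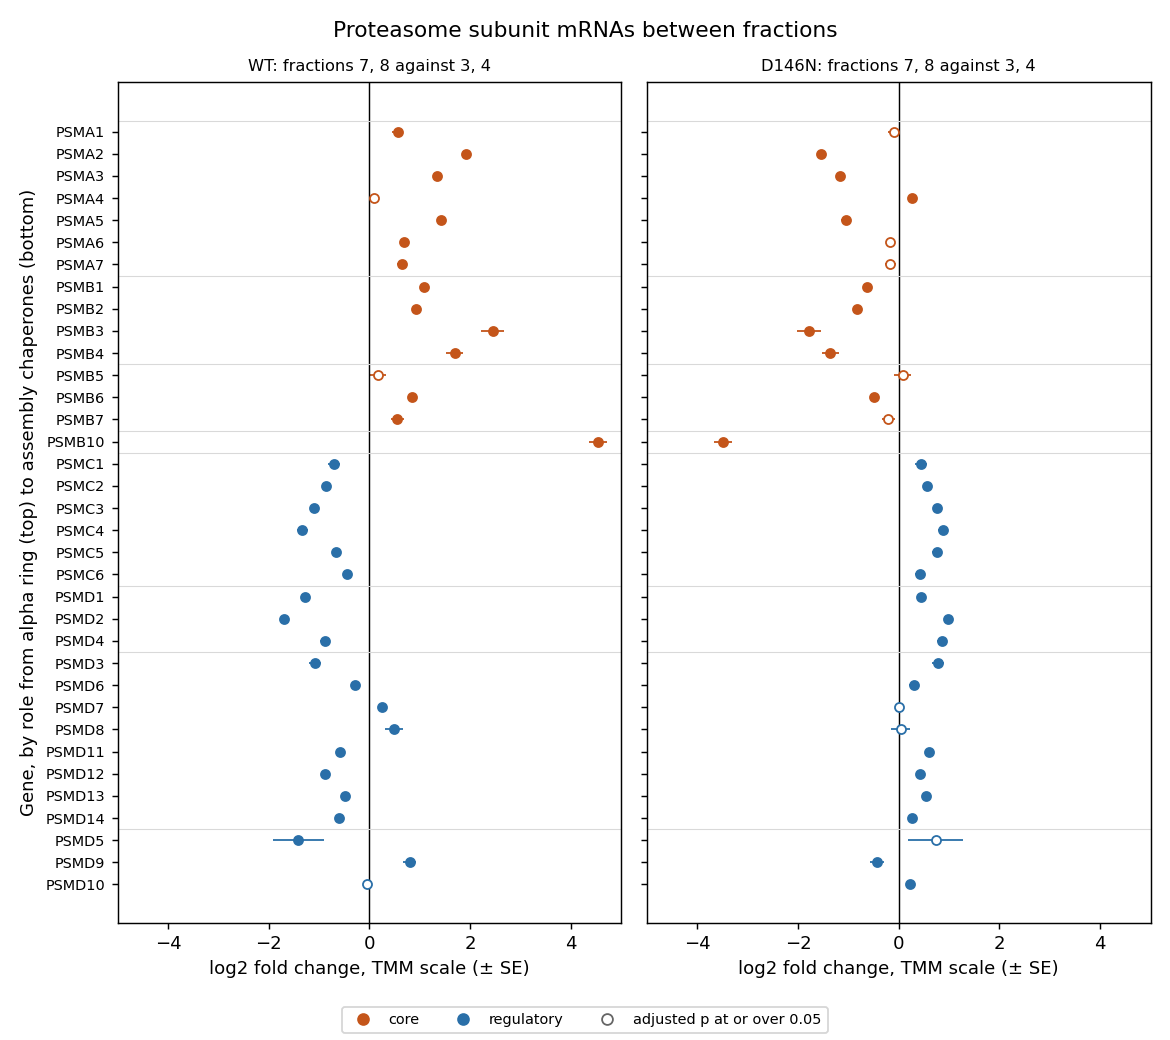
Log2 fold change with its standard error for the 35 tested genes between fractions 7 and 8 and fractions 3 and 4, in WT (left) and D146N (right), ordered by role; filled points had an adjusted p under 0.05. On this TMM scale 13 of 15 core genes are called higher in WT and 9 lower in D146N, and on library totals 13 core genes are called lower in WT and 14 higher in D146N; regulatory genes are called lower in WT (16 of 20) and higher in D146N (16 of 20).

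Among the alpha ring genes, 6 of the 7 tested were higher in WT fractions 7 and 8 and the median was 0.69. PSMA2 had TMM-scaled CPM of 6.42, 6.12 and 6.49 in fraction 3 and of 6.59, 5.58 and 5.51 in fraction 4. It rose to 22.4, 21.4 and 24.9 in fraction 7 and to 22.8, 22.7 and 24.7 in fraction 8. The log2 fold change was 1.92 with an SE of 0.07 (adjusted p = 1.2e-23), and values after ± are the SE of a fold change from here on. No library of fractions 7 and 8 overlapped those of 3 and 4. PSMA5, the most abundant core gene by counts, had 42.7, 43.3 and 41.5 in fraction 3 and 43.9, 47.0 and 43.5 in fraction 4, against 107, 103 and 104 in fraction 7 and 106, 103 and 185 in fraction 8. Its log2 fold change was 1.43 ± 0.09 (adjusted p = 7.6e-15), and the value of 185 is again fraction 8 replicate 3. At the other end of the family, PSMA1 changed by 0.56 ± 0.12 (adjusted p = 0.0001), and by 0.32 without that library. PSMA4 did not pass the test, at 0.09 ± 0.08 (adjusted p = 0.31): fractions 3 and 4 ran from 28.9 to 35.6, fraction 7 had 29.3, 29.1 and 29.1, and fraction 8 had 30.6, 31.9 and 48.6. Without fraction 8 replicate 3 its fold change was -0.059.

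The beta ring held the highest fold change of the 35 genes. PSMB10 encodes a catalytic subunit that replaces PSMB7 in the immunoproteasome, a form induced by interferon. Its mRNA was scarce, at 0.392, 0.529 and 0.450 TMM-scaled CPM in WT fraction 3 and at 0.428, 0.452 and 0.254 in fraction 4. In fraction 7 it stood at 10.7, 10.6 and 10.8 and in fraction 8 at 10.5, 11.1 and 5.43. All 6 later values exceeded all 6 earlier ones, by a log2 fold change of 4.54 ± 0.18 (adjusted p = 1.1e-22), and PSMB10 was the only core gene tested that was also called higher on library totals, where its 12 WT values were 0.613 to 1.33 in fractions 3 and 4 and 2.87 to 4.11 CPM in fractions 7 and 8. PSMB3, a structural subunit, changed by 2.45 ± 0.23 (adjusted p = 9.3e-12), from 0.264 to 0.624 in fractions 3 and 4 to 1.89 to 2.89 in fractions 7 and 8. Its mean over all libraries was 1.12 CPM on library totals, against 23.9, 42.5 and 59.3 for PSMB1, PSMB2 and PSMB4. The reason for this low level was not tested, and the value of PSMB3 is uncertain. All 4 structural beta genes tested (PSMB1 to PSMB4) were higher, with a median of 1.39.

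The 3 catalytic genes of the standard proteasome moved less, with a median of 0.56. PSMB6, which carries the caspase-like site, ranged from 9.18 to 10.9 in WT fractions 3 and 4 and from 15.0 to 21.0 in fractions 7 and 8 (0.85 ± 0.08, adjusted p = 1.4e-11). PSMB7, which carries the trypsin-like site, ranged from 14 to 16 and from 16.7 to 36.5 (0.56 ± 0.12, adjusted p = 0.00028), and its fold change was 0.32 without fraction 8 replicate 3. PSMB5, which carries the chymotrypsin-like site, had 12.6, 15.3 and 15.1 in fraction 7 and 11.2, 15.2 and 30.8 in fraction 8 against 13.9 to 17.2 in fractions 3 and 4, and did not pass the test (0.17 ± 0.16, adjusted p = 0.37). Without fraction 8 replicate 3 its fold change was -0.13. PSMB10 and PSMB3 rest on few counts, 1416 and 683 over the 24 libraries. Without these 2 genes the median of the core genes was 0.85 in WT.

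On the regulatory side the ATPase ring moved as a block: all 6 PSMC genes were lower in WT fractions 7 and 8, between -1.34 and -0.44. PSMC3, the most abundant regulatory gene by counts, had 24.9, 25.6 and 27.4 TMM-scaled CPM in fraction 3 and 25.2, 26.0 and 24.8 in fraction 4, against 10.2, 14.7 and 10.8 in fraction 7 and 11.3, 12.6 and 11.7 in fraction 8. That is a log2 fold change of -1.11 ± 0.07 (adjusted p = 4.0e-16) with no overlap between the fractions. PSMC4 fell by 1.34 on the log2 scale (adjusted p = 2.0e-13), to between 2.55 and 4.46 TMM-scaled CPM in fractions 7 and 8. PSMC5 fell by 0.66 (adjusted p = 1.6e-08) and PSMC6 by 0.44 (adjusted p = 6.5e-05). PSMC1 was called lower as well, but a pseudogene row, PSMC1P1, held 10042 counts against 5675 for PSMC1, so reads of this gene may have been split between copies and its value is uncertain.

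The base subunits that are not ATPases were the lowest of all, with a median of -1.28. PSMD2, a scaffold of the base, had 16.1, 17.9 and 15.8 in WT fraction 3 and 16.8, 16.3 and 17.9 in fraction 4, and 6.0, 4.17 and 4.60 in fraction 7 and 5.69, 5.50 and 5.20 in fraction 8. Its log2 fold change of -1.70 ± 0.08 (adjusted p = 1.2e-19) was the largest fall among the 35 genes on this scale. Of the 8 lid genes, 6 were lower and 2 higher. The higher ones were PSMD7, named after its value was seen (0.24 ± 0.07, adjusted p = 0.0041), and PSMD8 (0.49 ± 0.18, adjusted p = 0.024). The call of PSMD8 was not stable, and was lost under 15 of the 24 omissions of a single library. Fraction 8 replicate 3 had 47.8, against 16.5 to 20.1 in the other 5 libraries of fractions 7 and 8 and 15.3 to 17.8 in fractions 3 and 4, and without that library the fold change was 0.13.

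The 3 assembly chaperones, which help build the base and are absent from the finished particle, went different ways. PSMD9 had 3.14, 4.20 and 4.01 in WT fraction 3 and 2.83, 3.49 and 3.47 in fraction 4, and 5.72, 5.42 and 3.63 in fraction 7 and 5.69, 6.48 and 10.2 in fraction 8. It was higher by 0.80 ± 0.14 (adjusted p = 2.7e-06), although 1 library of fraction 7 lay within the range of fraction 3. PSMD5 was lower by -1.41 ± 0.50 (adjusted p = 0.012) on only 284 counts over all libraries. On library totals its WT values were 0.591 to 1.65 CPM in fractions 3 and 4 and 0.0322 to 0.0933 in fractions 7 and 8. It passed the filter on low counts only through the groups where it was high. Its call, counted above among the lower regulatory genes, therefore lends no support to their direction. PSMD10 stood at -0.05 ± 0.08 (adjusted p = 0.62). Without the chaperones, 15 of the 17 regulatory genes were lower, with a median of -0.71.

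The stretches before the annotated start of the genes at the ends of each side's order are shown because they are the most unlike members of the set: PSMB10 (highest core gene), PSMA4 (lowest core gene), PSMD9 (highest regulatory gene) and PSMD2 (lowest regulatory gene). Each holds the 250 bases upstream of the gene, 5′ to 3′ on the gene's strand, from RefSeq on GRCh38.p14, with capitals where a searched motif was found. They lie at chr16:67936851-67937100 on the minus strand for PSMB10, and on the plus strand at chr15:78540155-78540404 for PSMA4, chr12:121888540-121888789 for PSMD9 and chr3:184298991-184299240 for PSMD2.
PSMB10: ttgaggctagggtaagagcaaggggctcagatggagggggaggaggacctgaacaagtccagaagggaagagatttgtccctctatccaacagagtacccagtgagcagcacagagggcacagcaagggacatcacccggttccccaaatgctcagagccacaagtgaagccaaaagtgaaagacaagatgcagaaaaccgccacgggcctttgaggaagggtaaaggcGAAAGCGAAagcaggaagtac
PSMA4: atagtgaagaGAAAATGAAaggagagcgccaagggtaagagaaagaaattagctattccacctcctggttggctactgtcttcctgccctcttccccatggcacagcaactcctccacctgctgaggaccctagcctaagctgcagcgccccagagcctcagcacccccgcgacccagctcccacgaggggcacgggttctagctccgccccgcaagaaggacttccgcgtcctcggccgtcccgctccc
PSMD9: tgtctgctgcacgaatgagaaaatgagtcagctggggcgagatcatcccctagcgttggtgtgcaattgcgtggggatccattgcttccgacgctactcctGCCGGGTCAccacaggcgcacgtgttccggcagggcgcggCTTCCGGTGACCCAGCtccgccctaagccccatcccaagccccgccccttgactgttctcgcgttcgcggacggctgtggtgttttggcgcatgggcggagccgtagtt
PSMD2: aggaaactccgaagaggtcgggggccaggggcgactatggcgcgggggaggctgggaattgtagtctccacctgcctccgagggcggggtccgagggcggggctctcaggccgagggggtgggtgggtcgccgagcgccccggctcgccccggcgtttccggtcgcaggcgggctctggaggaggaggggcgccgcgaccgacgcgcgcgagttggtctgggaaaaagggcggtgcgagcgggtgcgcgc

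The capitals in PSMB10 and PSMA4 mark GAAANNGAA, a core of the interferon-stimulated response element, which starts 21 bases before the annotated start of PSMB10 and 240 bases before that of PSMA4. In PSMD9 they mark 2 matches to TGACNNNGC, a core of the element bound by NFE2L1 and NFE2L2 (149 and 102 bases before the start), and between them CCGGAAG, an ETS site (109 bases before the start), which is next to the second match. PSMD2 holds none of the searched letters. Promoter windows of 300 bases, searched on both strands, were given for 34 of the 39 genes, in 41 windows. None was given for PSMA7, PSMB1, PSMB6, PSMB7 and PSMD4, while the core windows include those of PSMA8, PSMB8, PSMB9 and PSMB11, not tested by fraction. The core shares thus do not describe the tested core genes alone. CCGGAAG was found in 10 of 21 regulatory windows (47.6%) and in 2 of 20 core windows (10%, PSMA6 and the unread PSMA8), against 10.3% of all 35116 windows. TGACNNNGC was found in 33.3% of regulatory, 15% of core and 13.3% of all windows, and CCAAT in 42.9%, 45% and 34.6%. GAAANNGAA, which was added to the search after the other 3 motifs had been counted, was in 4 core windows (PSMA4, PSMB4, PSMB8 and PSMB10; 20%), 1 regulatory window (PSMC2; 4.76%) and 8.11% of all windows. This motif had first been counted with 1 more A at its 3′ end, and in that longer form it was in the same 4 core windows, 0 regulatory windows and 3.57% of all windows. The shorter form was chosen for printing after those counts were seen. These are letter matches and show no binding.

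In D146N the same genes separated in the opposite order. Of the 20 regulatory genes, 16 were higher in fractions 7 and 8 than in 3 and 4, 1 was lower (PSMD9) and 3 were not called (PSMD5, PSMD7 and PSMD8), with a median log2 fold change of 0.49. The call of PSMD9 was lost under 12 of the 24 omissions of a single library. Among the 15 core genes 9 were lower, 1 was higher (PSMA4) and 5 were not called, with a median of -0.62. Of all genes, 60.2% were called, 29.9% higher and 30.3% lower, with a median of 0.10. On library totals the median of all genes was 3.00, 14 core genes were called higher and 1 lower, and all 20 regulatory genes were higher. The side medians differed by -1.12, or 2.17-fold in favour of the regulatory genes, and 15 of the 20 regulatory genes lay above the highest core gene.

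PSMB10 and PSMD2, which stood at the ends of the order in WT, stood at its ends in D146N too. PSMB10 had 5.69, 6.78 and 5.37 TMM-scaled CPM in D146N fraction 3 and 6.53, 6.87 and 4.99 in fraction 4, and 0.494, 0.701 and 0.383 in fraction 7 and 0.578, 0.543 and 0.510 in fraction 8. Its log2 fold change was -3.49 ± 0.18 (adjusted p = 1.1e-18), with no overlap. PSMA2 fell by 1.55 on the log2 scale (adjusted p = 1.8e-20), from 21.4 to 23.2 in fractions 3 and 4 to 6.98 to 8.28 in fractions 7 and 8. PSMD2 had 9.71, 9.31 and 11.4 in fraction 3 and 6.91, 8.29 and 7.13 in fraction 4. It rose to 16.9, 17.1 and 15.9 in fraction 7 and to 17.2, 17.2 and 18.4 in fraction 8, by 0.98 ± 0.08 (adjusted p = 5.4e-13). All 6 ATPase genes were higher, between 0.41 (PSMC6) and 0.88 (PSMC4, adjusted p = 5.0e-09). Of the standard catalytic genes only PSMB6 was called, at -0.49 ± 0.08 (adjusted p = 3.6e-06), while PSMB5 stood at 0.07 ± 0.17 (adjusted p = 0.72) and PSMB7 at -0.21 ± 0.12 (adjusted p = 0.16). PSMB7 was called lower, at -0.19, without WT fraction 8 replicate 3, a library that is in neither group compared.

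The difference between the genotypes was tested as an interaction, the D146N fold change minus the WT fold change. It was called for 32 of the 35 genes, beside 77.1% of all genes tested (41.7% positive and 35.4% negative). Among the core genes 13 had a negative interaction, none a positive one and 2 none called (PSMA4 and PSMB5), with a median of -1.71. Of the regulatory genes, 17 had a positive interaction, 2 a negative one (PSMD7 and PSMD9) and 1 was not called (PSMD8), with a median of 1.24. On library totals, where the median of all genes was 5.88, the interaction was positive for 14 core and 20 regulatory genes and negative for 1 core gene. The extremes were PSMB10 at -8.03 ± 0.25 (adjusted p = 1.1e-25) and PSMD2 at 2.68 ± 0.12 (adjusted p = 2.1e-21). As a description across the 35 genes, which are not independent replicates and were normalized together, the WT and D146N fold changes had Pearson's r = -0.974 and Spearman's rho = -0.966, and 31 genes had opposite signs.

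Within each fraction, D146N was also compared with WT. These comparisons use the same libraries as those above, arranged differently, and add no independent evidence. In fraction 3, 25 members were called (core 9 higher and 1 lower, regulatory 1 higher and 14 lower) beside 49.7% of all genes (25.8% higher, 23.9% lower), and in fraction 4, 25 members (core 11 higher, regulatory 1 higher and 13 lower) beside 48.5% (25.7% higher, 22.8% lower). In fraction 7, 25 members were called (core 10 lower, regulatory 15 higher) beside 63.5% (32.4% higher, 31.1% lower), and in fraction 8, 28 members (core 13 lower, regulatory 14 higher and 1 lower) beside 65.1% (32.5% higher, 32.6% lower). On library totals the split of the core genes was 1 higher and 13 lower in fractions 3 and 4, 14 higher and 1 lower in fraction 7 and 13 higher and 1 lower in fraction 8, and all 20 regulatory genes were lower in fractions 3 and 4 and higher in fractions 7 and 8. From fraction 3 to fraction 8, PSMB10 differed by 3.69, 4.00, -4.34 and -4.02. PSMD2 differed by -0.71, -1.20, 1.76 and 1.69 in the same order, and PSMC4 by -0.78, -0.59, 1.56 and 1.49. All of these values for PSMB10, PSMD2 and PSMC4 had an adjusted p under 0.05.

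Neighbouring fractions gave no call. With edgeR, 0 of the 35 members were called between fractions 4 and 3 or between 8 and 7 in either genotype, and 0% of all 18907 genes. At an unadjusted p under 0.05 there were 1 member between fractions 4 and 3 and 7 between 8 and 7 in WT, and 1 and 0 in D146N. DESeq2 also called 0 members in each, with 1, 8, 1 and 0 members at an unadjusted p under 0.05. The shares of all genes at an unadjusted p under 0.05 are not given, so these counts are not read as a result about the members. The median core fold change between WT fractions 8 and 7 was 0.32 against 0.04 for the regulatory genes, and without WT fraction 8 replicate 3 these medians were -0.0087 and -0.019, with 0 members at an unadjusted p under 0.05 in edgeR. In the other 3 comparisons both medians lay between -0.055 and 0.0019.

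The mirror between the genotypes was followed with crossed comparisons, which set the groups of like make-up side by side. Between D146N fractions 7 and 8 and WT fractions 3 and 4, 8 of 35 members were called, beside 17.3% of all genes (6.90% higher, 10.4% lower): PSMA2, PSMB1, PSMB2 and PSMB6 of the core and PSMC3, PSMC5 and PSMD13 of the regulatory genes were higher in D146N and PSMD1 was lower. The changes were small, from 0.20 ± 0.05 for PSMB2 to 0.31 ± 0.07 for PSMA2 among the core genes, and -0.33 ± 0.06 (adjusted p = 0.00021) for PSMD1. PSMB2 and PSMD1 are outside the naming rule and were chosen after their values were seen. The fold changes of all 35 members lay between -0.52 and 0.37. The core-to-regulatory balance differed by 0.07 on the log2 scale. Without WT fraction 8 replicate 3, a library of neither group that enters the shared estimate of spread, 19 members were called (10 core and 8 regulatory genes higher, 1 regulatory gene lower). The share of all genes called without that library is not given, so this rise cannot be read as particular to these genes.

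Between D146N fractions 3 and 4 and WT fractions 7 and 8, 13 members were called, beside 29.2% of all genes (17.1% higher, 12.1% lower). The 5 core genes called (PSMA1, PSMA4, PSMA6, PSMA7 and PSMB10) were lower in D146N and the 8 regulatory genes called (PSMC2, PSMC3, PSMC4, PSMD1, PSMD2, PSMD3, PSMD12 and PSMD14) were higher. PSMD2 differed by 0.74 ± 0.10 (adjusted p = 1.7e-07), PSMC4 by 0.65 ± 0.13 (adjusted p = 0.00015) and PSMB10 by -0.69 ± 0.16 (adjusted p = 0.00074). The balance differed by -0.35, and by -0.28 without WT fraction 8 replicate 3. Without that library 15 members were called, 1 core gene higher and 3 lower and 11 regulatory genes higher. The share of all genes called without it is again not given.

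**Figure D4:**
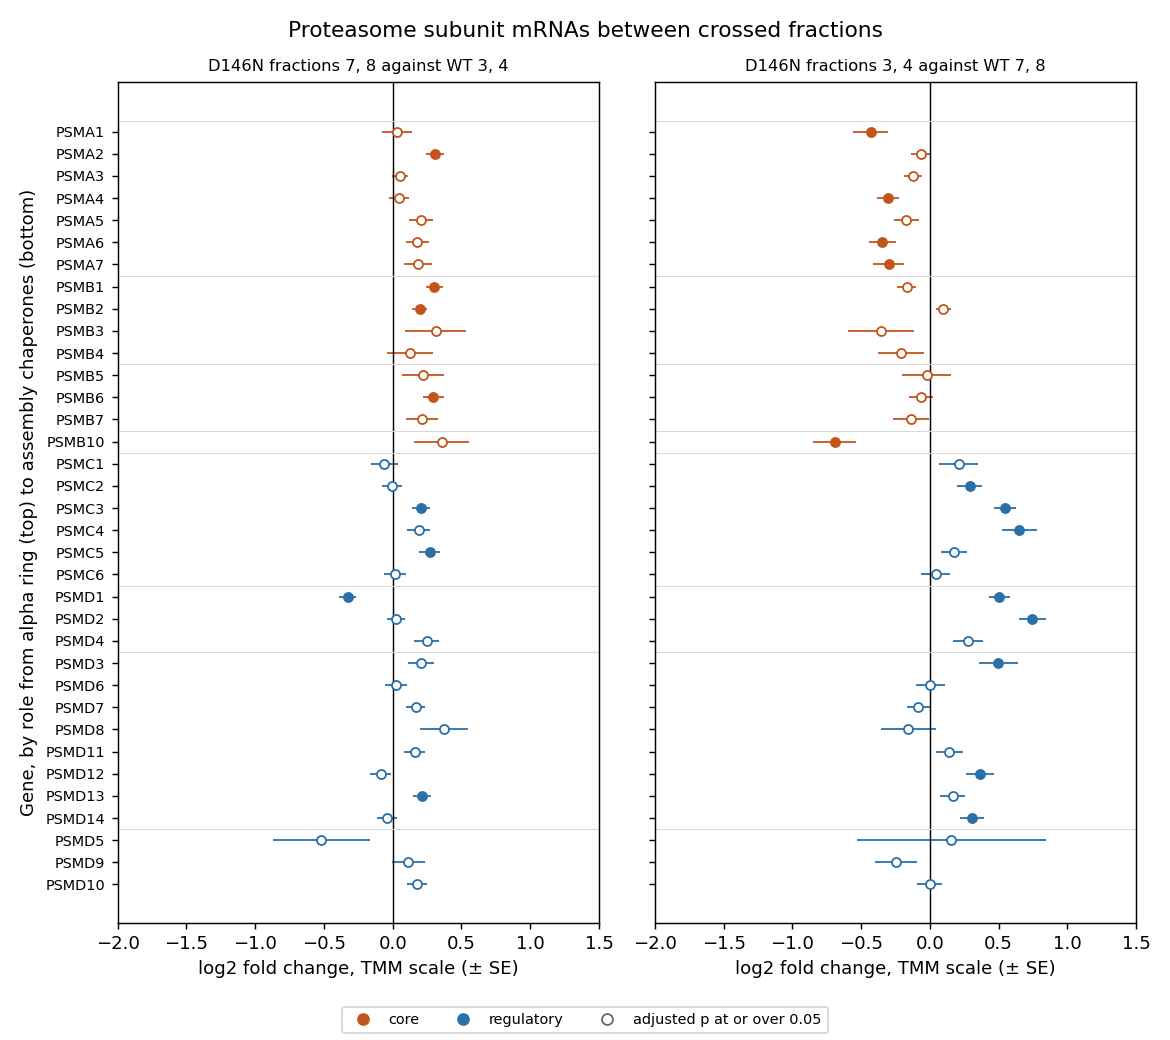
Log2 fold change with its standard error, on the TMM scale, between D146N fractions 7 and 8 and WT fractions 3 and 4 (left) and between D146N fractions 3 and 4 and WT fractions 7 and 8 (right); filled points had an adjusted p under 0.05. On the left 8 genes are called, all within 0.33 of 0; on the right the called core genes are below 0 and the called regulatory genes above it.

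WT fraction 8 replicate 3 differed from replicates 1 and 2 of its group in a way that involved the core genes more than the regulatory ones. On library totals its CPM was 2.26 times the mean of the other 2 libraries at the median of 14 core genes, 1.40 times at the median of 19 regulatory genes, and 1.26 times at the median of 9393 genes of at least 1 CPM. The highest of the core genes were PSMB4 (3.60-fold), PSMB5 (3.32-fold) and PSMB7 (2.88-fold). The highest of the regulatory genes were PSMD8 (3.94-fold), PSMD4 (2.68-fold) and PSMD9 (2.38-fold). PSMB10 (0.715-fold), PSMC1 (0.745-fold) and PSMD12 (0.981-fold) lay below 1. Across these 33 genes the excess showed little relation to the difference of fraction 7 from fractions 3 and 4, with Spearman's rho = 0.242 as a description. PSMB4, PSMD4 and the other genes of this paragraph that the naming rule does not cover were chosen after their values were seen. Without this library 31 members were called between the WT fractions (core 13 higher, regulatory 2 higher and 16 lower), 29 between the D146N fractions and 33 in the interaction. Shares of all genes called in that fit are not given.

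**Figure D5:**
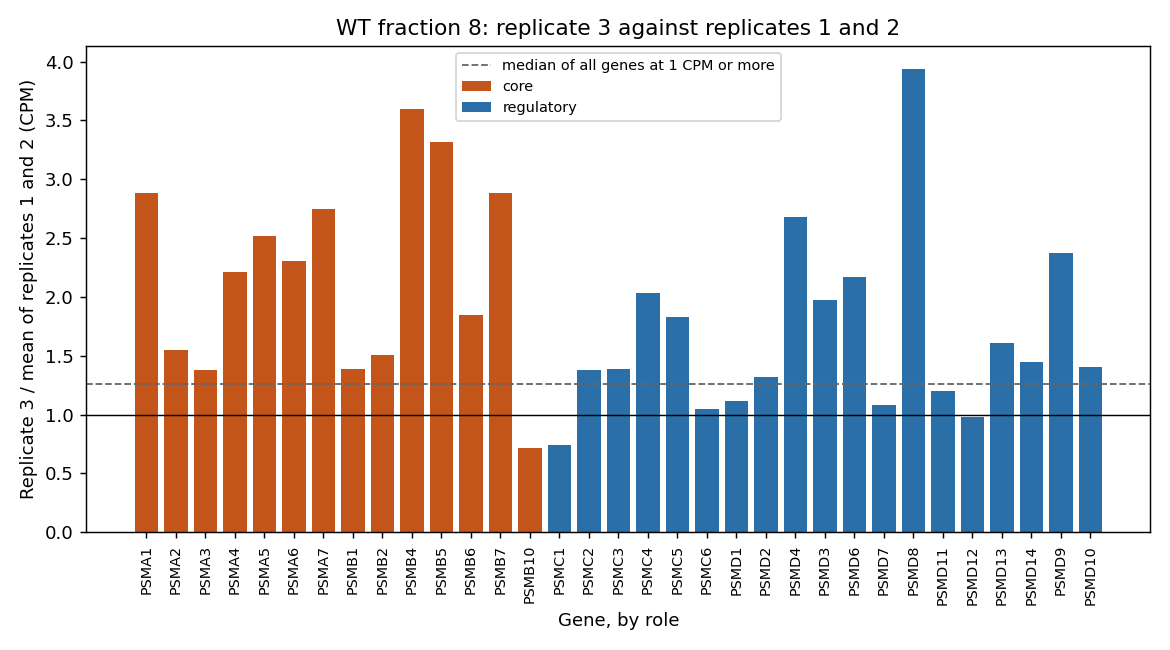
CPM of WT fraction 8 replicate 3 divided by the mean of replicates 1 and 2, on library totals, for the 33 proteasome genes of at least 1 CPM, ordered by role; the solid line marks no difference and the dashed line the median of all genes (1.26). Core genes reach 3.60 (PSMB4) and regulatory genes 3.94 (PSMD8), while PSMB10, PSMC1 and PSMD12 lie below 1.

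The counts were also summed over the 4 fractions of each genotype and replicate number. Of 36 members tested, 20 were called between D146N and WT, beside 27.4% of all 20562 genes (14.9% higher, 12.5% lower): 6 core genes were higher and 1 lower, and 12 regulatory genes were higher and 1 lower. The fold changes lay between -0.57 and 0.37. The medians were 0.11 for the core and 0.20 for the regulatory genes, against 0.01 for all genes. The highest values were those of PSMC5 (0.37 ± 0.05, adjusted p = 2.4e-05), PSMD4 (0.36 ± 0.04, adjusted p = 5.1e-06) and PSMC3 (0.35 ± 0.04, adjusted p = 1.1e-05), and the lowest that of PSMB10 (-0.57 ± 0.14, adjusted p = 0.0056). PSMD4 is outside the naming rule and was chosen after its value was seen. The sums hold only the fractions that were sequenced, and weigh each fraction by its library's depth. The 39 genes had 27477 to 36358 counts a library in WT fractions 3 and 4, and 6976 to 17358 in fractions 7 and 8. In D146N they had 5572 to 7040 in fractions 3 and 4, and 34274 to 36146 in fractions 7 and 8. For these genes the sums thus rest mostly on the libraries of the first crossed comparison, and add no independent evidence.

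The 4 remaining members could not be tested by fraction. PSMA8, an alpha subunit of the testis, and PSMB11, the catalytic subunit of the thymus, had 0 counts in all 24 libraries, which allows up to 3 counts a library. PSMB8 and PSMB9, the other catalytic subunits of the immunoproteasome, had 1.5 and 93 counts in all. PSMB9 was tested only in the sums, at -0.33 ± 0.58 (adjusted p = 0.72). PSMA3 overlaps an antisense gene, PSMA3-AS1, and since the sources used here do not say whether counting used strand, its reads cannot be told apart from those of its partner.

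Genes that act with the proteasome were given from a list of 36, all of which passed the filter. In WT 13 were higher, 18 lower and 5 not called between fractions 7 and 8 and fractions 3 and 4, beside 73.9% of all genes called (34.6% higher, 39.3% lower). In D146N 13 were higher, 12 lower and 11 not called, beside 60.2% of all genes called (29.9% higher, 30.3% lower). On the TMM scale the chaperones that assemble the core particle had the signs of most core genes. POMP, the maturation factor of the beta rings, was higher by 2.76 ± 0.09 in WT (adjusted p = 5.1e-22), above the core median of 0.93. In D146N it was lower by -1.84 ± 0.09 (adjusted p = 2.4e-17). On library totals, where most core genes were lower in WT, its means were 28.0 and 27.3 CPM in WT fractions 3 and 4. They were 29.1 and 28.6 in fractions 7 and 8. On the same scale the D146N means of POMP were 20.7 and 19.9 CPM in fractions 3 and 4. In D146N fractions 7 and 8 they were higher, at 43.4 and 43.1. PSMG2, PSMG3 and PSMG4, which guide alpha ring assembly, stood at 2.77, 2.18 and 2.99 in WT and at -2.41, -1.98 and -2.56 in D146N, and all 6 values were called. On library totals the WT means of PSMG4 rose from 9.74 and 9.31 CPM in fractions 3 and 4 to 12.1 and 11.2 in fractions 7 and 8. Those of PSMG1 and PSMG3 were lower in fractions 7 and 8, as for most core genes, and PSMG2 went both ways. PSMG1 was called in WT (0.71 ± 0.19, adjusted p = 0.0028) and not in D146N (-0.14 ± 0.20, adjusted p = 0.57). In WT fraction 8, replicates 1 to 3 had 6.36, 5.18 and 21.9 CPM of PSMG1 on library totals. PSMG2 had 10.4, 9.71 and 18.6 there, and PSMG3 had 18.3, 18.8 and 39.8. The WT fold changes of these genes thus rest in part on replicate 3, and values without it are not given. The regulatory subunits outside the naming pattern did not share a direction. ADRM1, a ubiquitin receptor, went with the regulatory genes (-1.11 ± 0.13 in WT and 0.84 ± 0.12 in D146N), whereas SEM1, a short lid subunit, went with the core genes (1.59 ± 0.09 and -0.79 ± 0.09). All 4 of these values had an adjusted p under 0.05.

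The alternative caps did not share a direction. PSME1, a subunit of a cap that does not use ATP, was higher in WT (1.43 ± 0.19, adjusted p = 5.5e-07) and lower in D146N (-0.73 ± 0.20, adjusted p = 0.0035), while PSME4, a large single-chain cap, was lower in WT (-0.73 ± 0.07, adjusted p = 7.4e-12) and not called in D146N (0.05 ± 0.07, adjusted p = 0.56). PSME2, the partner of PSME1 in its cap, was at 0.85 ± 0.13 (adjusted p = 3.7e-07) in WT and -0.62 ± 0.13 (adjusted p = 0.00013) in D146N. In WT fraction 8, replicates 1 to 3 had 1.76, 2.11 and 7.61 CPM of PSME1 on library totals. PSME2 had 3.21, 2.82 and 6.21 there. Fold changes of these genes without replicate 3 are not given. PSME3, which forms a cap of its own, was not called in WT (0.0036 ± 0.069, adjusted p = 0.97) and was higher in D146N (0.16 ± 0.07, adjusted p = 0.043). NFE2L1, the transcription factor that raises proteasome genes when degradation fails, was lower in WT (-1.75 ± 0.10, adjusted p = 1.7e-17) and higher in D146N (1.08 ± 0.10, adjusted p = 4.7e-12). These values too are relative to the bulk of genes.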

How the data were processed

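Ribosomal RNA depleted RNA sequencing of gradient fractions was analysed in 24 libraries, grouped by the sample titles, which matched the column names. As deposited by the authors, the values are expected counts of reads per Ensembl gene, 1 column a library, not normalized (73.3% of nonzero values were whole within 0.005). The submitters' processing notes list featureCounts 1.5.1, HISAT2 2.1.0, Bowtie2 2.3.5, SAMtools and hg38, and the role of each is not given in the sources used here. Tests had been planned for whole counts, so values were rounded. The main test was the robust quasi-likelihood test of edgeR 4.0.16 (R 4.3.3), after filterByExpr and TMM normalization, with 8 group means over all libraries (16 residual degrees of freedom, common biological coefficient of variation 13.8%) and the Benjamini-Hochberg adjustment over 18907 genes, or 20562 for the sums of 4 fractions. The SE of a fold change was worked back from this test, as its absolute value over the square root of the F statistic. The script was tested on simulated data in which most genes did not differ between groups. That test does not cover the shift in library make-up seen here. Alternatives were library totals, median-of-ratios factors, DESeq2 1.42.0, no filter, totals without small and mitochondrial RNA rows, a replicate block, other memberships of the balance and each library left out.

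Genes were named with values by rule: the catalytic and immunoproteasome subunits, the assembly chaperones, and in each of PSMA, PSMB, PSMC and PSMD the 2 highest and 2 lowest WT fold changes. Other members and the PSMG, PSME2 and PSME3 genes given with values were chosen after their values were seen. The members and lists were chosen with earlier results of these data known. The submitters call the replicates biological, but nothing says that they were separate cultures, so p-values measure the spread between these samples. Library totals were 21.2 to 33.0 M counts. The labels name no molecular identifiers, and floors cover counting error only. Symbols were given to 99.9% of rows. No 2 replicates were identical or agreed within sampling noise (chi-square per degree of freedom 1.75 or more). The scripts used Python 3.11.15.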

Additional observations from a re-analysis of the deposited data

Results flagged for a closer look

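For 15 of the genes named by rule, the fold change of fractions 7 and 8 over fractions 3 and 4 differed between D146N and WT by the test of the difference itself (edgeR, adjusted p under 0.05 over all genes). In the same test 77.1% of all genes tested were called (41.7% positive and 35.4% negative), so that a call as such was common. Among core genes the D146N value minus the WT value was -8.03 for PSMB10, -4.23 for PSMB3, -3.47 for PSMA2, -2.47 for PSMA5, -1.34 for PSMB6, -0.76 for PSMB7 and -0.66 for PSMA1. On the regulatory side it was 2.68 for PSMD2, 2.21 for PSMC4, 2.15 for PSMD5, 1.87 for PSMC3, 1.41 for PSMC5, 0.85 for PSMC6 and 0.27 for PSMD10, and -1.23 for PSMD9. On this TMM scale PSMD9 alone of these genes had a sign opposite to that of its side. On library totals the interaction was positive for 14 core genes and for all 20 regulatory genes, PSMD9 among them, and negative for 1 core gene. PSMD5 passed the filter on low counts only through the groups where it was high, so its value lends no support to the direction of its side. An effect of the mutant and a difference in fraction numbering cannot be told apart.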

How the results depend on the processing

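On library totals the fold changes of these genes turned sign. In WT they were -2.08 for PSMA1, -0.75 for PSMA2, -2.56 for PSMA4, -1.21 for PSMA5, -0.23 for PSMB3, -2.47 for PSMB5, -1.81 for PSMB6, -2.08 for PSMB7, -2.13 for PSMD8 and -1.85 for PSMD9. In D146N they were 2.83 for PSMA1, 1.38 for PSMA2, 1.88 for PSMA5, 1.14 for PSMB3, 2.43 for PSMB6, 2.72 for PSMB7 and 2.49 for PSMD9. Genes near 0 turned sign without passing the test. PSMD10 in WT was 0.046 with median-of-ratios factors and 0.045 with DESeq2, and without a filter PSMA4 was -0.079 and PSMB5 -0.00013 in WT and PSMA1 0.023 in D146N. With each library left out, PSMA4 in WT ranged from -0.059 to 0.13, PSMB5 in WT from -0.13 to 0.28 and PSMA1 in D146N from -0.14 to 0.080. The cause was not tested.

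The count of members called between D146N fractions 7 and 8 and WT fractions 3 and 4 (8) was 13 on library totals and ranged from 7 to 19 with each library left out, 19 being without WT fraction 8 replicate 3. Between WT fractions 8 and 7 (0 called) it was 1 with no filter and ranged from 0 to 3: 2 core genes without WT fraction 8 replicate 1 and 3 without replicate 2. The other counts stayed within 1.5 times. Shares of all genes called under these settings are not given. The WT balance (1.64) was 1.47 with ADRM1 and SEM1 added to the regulatory side. The D146N balance (-1.22) was -1.11 with each member weighing the same, -1.13 with ADRM1 and SEM1 and -1.10 without the most abundant gene of each side (PSMA5 and PSMC3).

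The WT call of PSMD8 and the D146N call of PSMD9 were lost under 15 and 12 of the 24 single-library omissions. Of the 35 genes tested by fraction, PSMB3, PSMB10 and PSMD5 had the fewest counts.

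With the replicate block 32 members were called between the WT fractions, 27 between the D146N fractions and 32 in the interaction, as without it. No effect shared by replicate number was seen: same-number libraries of a genotype had correlations of their deviations from -0.02 to 0.03 over 36 pairs, none over 0.1. These correlations cannot show whether same-number fractions came from the same gradient.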
